A study of Mus musculus with 5 samples.

Results

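The genes described are 9 genes of the urothelial surface and its differentiation: the uroplakins Upk1a, Upk1b, Upk2, Upk3a and Upk3b, the surface antigen gene Psca, the transcription factor genes Trp63 and Grhl3, and the cornified envelope gene Sprr1a. They were picked by name, and their probes were found by the gene name printed on the array or by the current symbol of the probe's accession. This gave 11 probes for 8 of the 9 genes, no probe was matched to Grhl3 here, and the platform annotation alone gave 1 more probe, for Trp63. All 8 genes had a probe that passed the filter on dim probes, out of 17425 genes tested on the whole array.

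The arrays set GFP+ cells against GFP- cells sorted from the papilla, the inner tip of the kidney medulla, of mice that carried an H2B-GFP transgene. All animals, of both groups, had a doxycycline pulse before birth and were 2 to 3 months old when the tissue was taken, per the labels. GFP+ cells are those that still held the nuclear label at that age, and GFP- cells those that did not. The titles call all 5 samples control, so that word covers both populations. The promoter that drives the transgene, the number of animals per array and the number of sorted cells are not given in the labels.

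Each of the 5 arrays, called replicates 1 to 5, carried both populations of 1 biological replicate, GFP+ in Cy5 and GFP- in Cy3, per the labels. The labels show no dye swap, and a dye difference particular to a probe therefore sits in every ratio of that probe. Normalization within each array takes out only a dye difference that probes of like brightness share. Ratios are given as log2 of GFP+ over GFP-. That direction is likely rather than stated, since the files do not say which dye their first intensity is. Were it the other way round, each sign would be reversed. The cDNA was amplified by a global PCR protocol before labelling, and fewer cells of a type cannot be told apart from less RNA per cell.

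Uroplakins are membrane proteins of the urothelium, the epithelium that lines the renal pelvis, ureter and bladder. The tetraspanins uroplakin Ia and Ib each pair with a single-pass partner, Ia with uroplakin II and Ib with uroplakin IIIa or IIIb. The pairs assemble into the stiff plaques that cover the superficial umbrella cells and form part of the barrier against urine. Trp63 marks the basal cells of stratified epithelia, Grhl3 acts late in the differentiation of umbrella cells, and Psca is a lipid-anchored surface protein of the Ly6 family found on urothelium.

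Levels are given as multiples of the negative control probe in the same channel of the same array. That probe read from 22.9 to 49.3 intensity units in the GFP+ channel and from 17.7 to 49.1 in the GFP- channel. A probe counted as above background from 3 times the negative control upward. By that measure 59.4% to 72.5% of all probes were above background in GFP+ and 57.7% to 75.3% in GFP-. Levels of different probes are not comparable with each other.

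Replicate 1 stood apart from the other arrays. Its log2 ratios correlated with those of replicates 2 to 5 at -0.137, -0.059, -0.154 and -0.114 across genes, while the others correlated with each other at 0.0495 to 0.201. The labels give it the same dyes as the other arrays and it is used as labelled, but whether its channels are crossed was not tested. If they are, each replicate 1 ratio below has the opposite sign. Values without replicate 1, and with its sign turned, are given with the results that rest on it.

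No member differed between GFP+ and GFP- cells beyond the spread between arrays in limma, with Benjamini-Hochberg adjustment over all genes. Of the 8 tested members 0 passed an adjusted p of 0.05, as did 0% of all genes, and at an unadjusted p under 0.05 there was 1 member, Psca, on the higher side, against 3.19% of all genes on that side and 4.94% on either. A mean at least 2-fold higher in GFP+ was reached by 2 of 8 members, Psca and Upk3b, against 13.4% of all genes. A mean at least 2-fold lower was reached by 1 of 8, Upk1b, against 12.6%. For all 12 probes, the Trp63 probes below the filter included, the values of the 2 populations overlapped. The same share over all probes is not given here.

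The tetraspanin gene Upk1a was measured by a pair of probes, and both were above background in both populations on all 5 arrays. Probe A_52_P166330, the brighter one and the one that stands for the gene, read 20.3, 16, 36.4, 30.5 and 39.8 times the negative control in GFP+ cells of replicates 1 to 5. In GFP- cells it read 43.9, 27.8, 14.1, 54.9 and 26.5 times. GFP+ was the higher population on replicates 3 and 5 and the lower one on the others.

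After normalization the log2 ratios of A_52_P166330 were -0.26, -0.98, 1.54, -1.10 and 0.12, with a mean of -0.14 ± 1.06 (SD, n = 5). The 95% interval of the mean in limma ran from -1.40 to 1.13, and the adjusted p was 0.957. The second Upk1a probe, A_51_P372294, read 5.50, 13.5, 6.52, 7.15 and 9.24 times the negative control in GFP+ cells, against 10.3, 3.30, 28.9, 6.35 and 9.91 times in GFP- cells. The probes disagreed on the arrays where either moved most: on replicate 2 the log2 ratio was 1.20 by A_51_P372294 and -0.98 by A_52_P166330, and on replicate 3 it was -1.84 and 1.54.

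Upk1b, the other tetraspanin of the plaque, was the member with the lowest mean ratio. Its probe read 7.67, 1.26, 3.25, 2.77 and 4.07 times the negative control in GFP+ cells of replicates 1 to 5, against 5.19, 5.98, 9.25, 22.7 and 13.2 times in GFP- cells. GFP+ was lower than GFP- on replicates 2 to 5 and higher on replicate 1. It was above background on 3 of 5 arrays in GFP+ and on 5 of 5 in GFP-. With neither the offset nor normalization its mean ratio was -1.63, against -1.22 with the offset alone and -1.37 with both.

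The normalized log2 ratios of Upk1b were 0.98, -1.79, -1.21, -2.78 and -2.05, with a mean of -1.37 ± 1.43 (SD, n = 5), which is 2.59-fold lower in GFP+. Its 95% interval ran from -2.86 to 0.12, and limma gave an adjusted p of 0.825 (unadjusted p 0.0662). Without replicate 1 the mean was -1.96 ± 0.65 (SD, n = 4), or 3.89-fold lower, and limma gave an adjusted p of 0.326 (unadjusted p 0.00635). Leaving out replicate 2, 3, 4 or 5 instead gave means of -1.26, -1.41, -1.02 and -1.20, with an unadjusted p from 0.114 to 0.193 and an adjusted p of at least 0.886 in limma. Of all genes, 6.66% had a lower mean than Upk1b over the 5 arrays.

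Upk2, the partner of uroplakin Ia, varied little in GFP- cells, where its highest reading was 1.74-fold above its lowest. Its probe read 32.3, 29.5, 19.3, 63.0 and 22.9 times the negative control in GFP+ cells, against 49.3, 33.1, 28.2, 38.8 and 37.2 times in GFP- cells. Only replicate 4 had the higher reading in GFP+, and after normalization the ratio of replicate 1 was above 0 as well. The normalized log2 ratios were 0.26, -0.44, -0.29, 0.34 and -1.09, mean -0.24 ± 0.58 (SD, n = 5), with a 95% interval from -1.28 to 0.79 and, in limma, an adjusted p of 0.907.

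Upk3a, the partner of uroplakin Ib in the umbrella cell plaque, was the 1 member with a ratio above 0 on every array, which was the case for 4.71% of all genes. Its probe read 62.0, 98.0, 52.0, 53.2 and 143 times the negative control in GFP+ cells of replicates 1 to 5, against 55.1, 31.9, 46.3, 41.4 and 54.8 times in GFP- cells. The GFP+ readings of replicates 1, 2 and 5 lay above all GFP- readings, and those of replicates 3 and 4 lay among them.

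The normalized log2 ratios of Upk3a were 1.08, 1.26, 0.54, 0.03 and 0.68, with a mean of 0.72 ± 0.48 (SD, n = 5), or 1.65-fold. Limma gave a 95% interval from -0.28 to 1.72 and an adjusted p of 0.825. The exact sign-flip permutation test gave a two-sided p of 0.0625, the smallest that 5 arrays allow. The ratio of replicate 4 was close to 0. With a loess span of 0.7 or an offset of 16, no member had the same sign on all 5 arrays. The SD of Upk3a was small for this data set, and 4.61% of all genes had a smaller one.

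Upk3b, a close relative of Upk3a that is also known in the mesothelium, was bright in both populations on all arrays. Its probe read 1881, 9493, 3935, 4007 and 366 times the negative control in GFP+ cells, against 482, 1311, 4517, 206 and 309 times in GFP- cells. GFP+ was clearly the higher population on replicates 1, 2 and 4, while replicates 3 and 5 read nearly alike in both. The highest reading was 26.0-fold above the lowest among the GFP+ samples and 22.0-fold among the GFP- samples.

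The normalized log2 ratios of Upk3b were 2.37, 2.63, 0.02, 3.93 and -0.66, with a mean of 1.66 ± 1.92 (SD, n = 5), or 3.15-fold higher in GFP+. Its 95% interval ran from -0.17 to 3.48, and limma gave an adjusted p of 0.825. (unadjusted p 0.0685) Of all genes, 5.04% had a higher mean. Replicate 1 did not stand apart for Upk3b, and without it the mean was 1.48 ± 2.16 (SD, n = 4; adjusted p 0.522, limma).

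Uroplakin partners can be set side by side on the ratio scale. On replicates 2 to 5 the log2 ratios of Upk1b were all below 0, and those of its partner Upk3a were all above 0. On replicate 1 both were above 0, at 0.98 for Upk1b and 1.08 for Upk3a. By A_52_P166330, Upk1a and its partner Upk2 had the same sign on replicate 2 only. By the second Upk1a probe, A_51_P372294, they had the same sign on replicates 3 and 5 instead. These are descriptions of single ratios, and no test was made between genes.

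The arrays measured RNA, and nothing was measured at a promoter. The stretches of 250 bases before the RefSeq start of Upk3a and Upk3b are printed to show how the promoters of these related genes differ. Whether these stretches bear on the RNA ratios was not tested. They are on the plus strand of mouse build GRCm38.p6, at chr15:85016891-85017140 for Upk3a and chr5:136038246-136038495 for Upk3b. Capitals mark matches on either strand to the CCAAT box (CCAAT), the GC box (GGGCGG) and a GATA motif (GATAA).
Upk3a: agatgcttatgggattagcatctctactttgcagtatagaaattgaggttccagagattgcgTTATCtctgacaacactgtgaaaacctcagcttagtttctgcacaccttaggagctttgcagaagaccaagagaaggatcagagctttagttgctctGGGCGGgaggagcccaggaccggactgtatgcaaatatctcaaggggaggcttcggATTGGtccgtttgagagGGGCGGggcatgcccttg
Upk3b: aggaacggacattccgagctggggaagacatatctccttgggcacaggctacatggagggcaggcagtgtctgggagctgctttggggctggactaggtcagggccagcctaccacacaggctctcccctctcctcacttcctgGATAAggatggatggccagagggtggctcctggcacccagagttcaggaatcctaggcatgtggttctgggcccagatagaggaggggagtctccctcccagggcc

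In the Upk3a window a CCAAT box lay on the opposite strand 35 bases before the start. A GC box lay 91 bases and another 18 bases before it, and a GATA motif lay on the opposite strand 188 bases before it. The Upk3b window held a GATA motif 106 bases before the start and no match to the other 2 motifs. Among 32851 RefSeq promoter windows of the same length, 33.8% held a CCAAT box, 32.7% a GC box and 22.6% the GATA motif, so such matches are common. The Upk1a window held none of the 7 motifs searched, which says only that those letters are not in that window.

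Psca, the lipid-anchored surface antigen, had the highest mean ratio of the members, and it was also the member that varied most. Its probe read 4393, 17792, 11224, 14707 and 2316 times the negative control in GFP+ cells of replicates 1 to 5. In GFP- cells it read 11051, 7285, 371, 907 and 97.6 times. The GFP- readings differed by 113-fold between the highest and the lowest, against 7.68-fold among GFP+ readings. The GFP- readings of replicates 1 and 2 lay within the GFP+ range, and those of replicates 3, 4 and 5 lay below all GFP+ readings.

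The normalized log2 ratios of Psca were -1.23, 1.15, 5.17, 4.09 and 3.65, with a mean of 2.56 ± 2.58 (SD, n = 5), or 5.92-fold higher in GFP+. Limma gave a 95% interval from 0.26 to 4.87, with an adjusted p of 0.825 (unadjusted p 0.0342). The exact two-sided sign-flip permutation test gave a p of 0.1875. Over the whole array, 0.987% of genes had a higher mean than Psca, while 19.6% had a larger SD.

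Replicate 1 was the array on which Psca was lower in GFP+. Without it the mean was 3.51 ± 1.70 (SD, n = 4), or 11.4-fold higher, and limma gave an adjusted p of 0.326 (unadjusted p 0.0044). Without replicate 2 the mean was 2.92, with an adjusted p of 0.936 in limma (unadjusted p 0.0405). Without replicate 3, 4 or 5 the means were 1.91, 2.18 and 2.29, the unadjusted p was 0.107, 0.102 and 0.102, and limma's adjusted p was at least 0.886. The unadjusted p of Psca was thus above 0.05 in 3 of the 5 fits that left out 1 array. Without replicate 1 the adjusted p of 0.326 in limma was the lowest of any gene, but other genes shared it, among them Upk1b and Krt7. Of the 8 members 2, Psca and Upk1b, then had an unadjusted p under 0.05, against 11.5% of all genes. Psca and Upk3b were the 2 members at least 2-fold higher on those 4 arrays, against 16.5% of all genes, and Upk1b the 1 member at least 2-fold lower, against 18.9%.

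**Figure D1:**
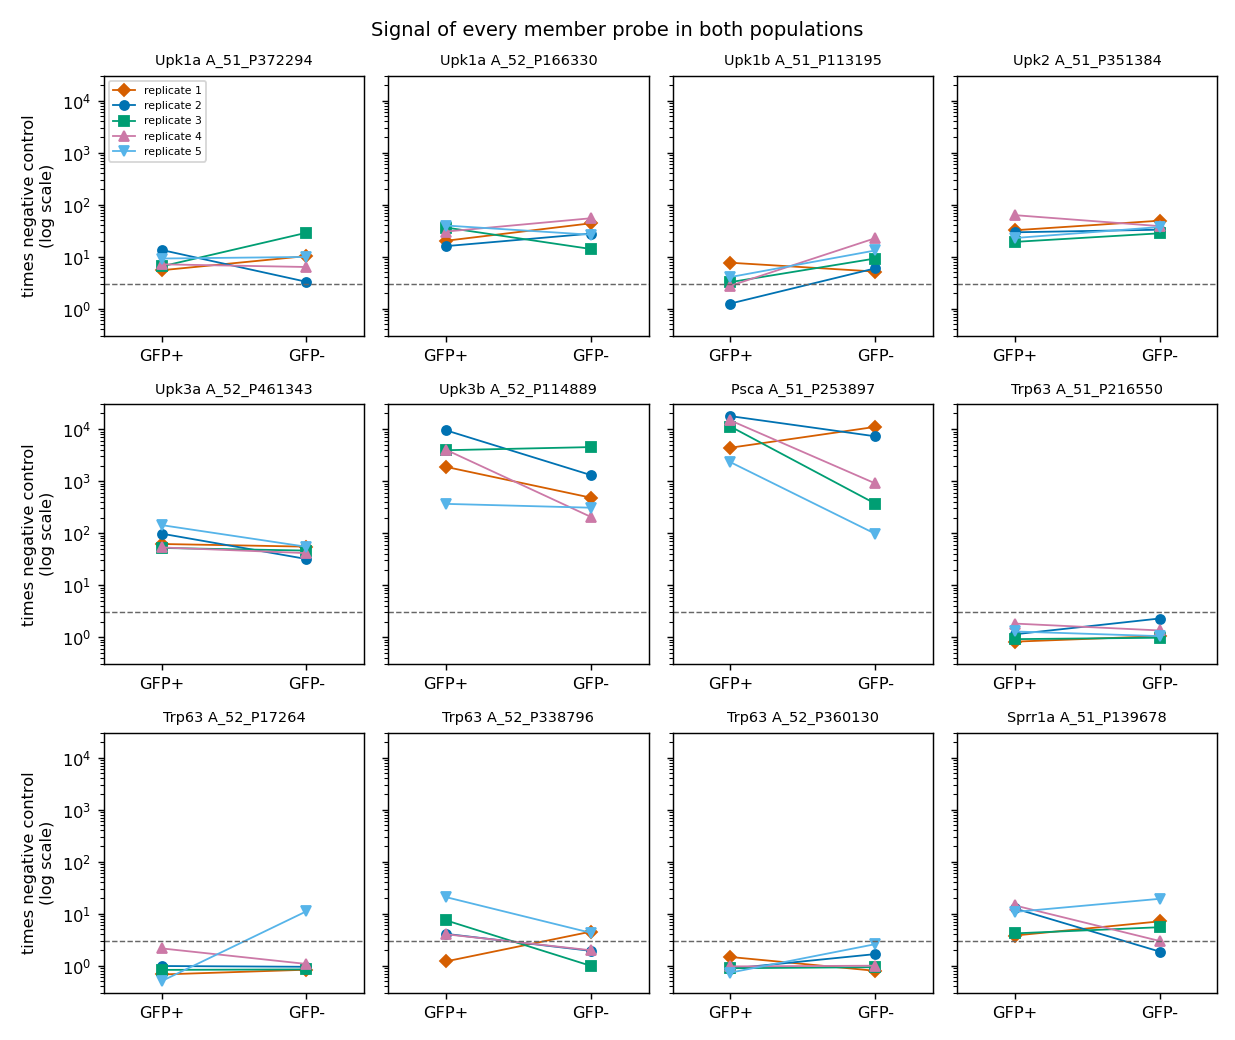
Signal of each of the 12 member probes in GFP+ and GFP- cells, as multiples of the negative control probe on a log scale, with 1 line per array and the dashed line at 3 times. The GFP- readings of Psca run from 97.6 to 11051 times, and 3 of the 4 Trp63 probes lie below the dashed line apart from 1 reading at 11.1 times.

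Trp63 encodes p63, the transcription factor of basal epithelial cells, and was close to background. Probe A_52_P338796, which stands for the gene, read 1.21, 4.09, 7.44, 4.02 and 20.8 times the negative control in GFP+ cells, against 4.51, 1.93, 0.994, 1.98 and 4.29 times in GFP- cells. It was above background on 4 of 5 arrays in GFP+ and on 2 of 5 in GFP-. GFP+ was the higher population on replicates 2 to 5, with the highest reading on replicate 5.

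The normalized log2 ratios of A_52_P338796 were -0.49, 0.20, 2.03, 0.11 and 1.35, with a mean of 0.64 ± 1.02 (SD, n = 5). Limma gave a 95% interval from -0.60 to 1.89 and an adjusted p of 0.825. The other Trp63 probes lay below the filter, and which of the probes reports the gene best was not tested. A_51_P216550 was at most 1.83 times the negative control in GFP+ and 2.29 times in GFP-. A_52_P360130, named by the platform annotation only, was at most 1.47 and 2.59 times. Probe A_52_P17264 was not above background in GFP+, where its highest reading was 2.15 times, and in GFP- it was above background on replicate 5 alone, at 11.1 times. On that same GFP- sample A_52_P338796 read 4.29 times, below its GFP+ reading of 20.8 times, so the probes of Trp63 pointed in opposite directions on replicate 5.

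Sprr1a encodes a small proline-rich protein that is cross-linked into the cornified envelope of squamous epithelia. Its probe read 3.80, 12.6, 4.18, 14.4 and 10.8 times the negative control in GFP+ cells, against 7.11, 1.87, 5.49, 2.99 and 19.3 times in GFP- cells. It was above background on 5 of 5 arrays in GFP+ and on 3 of 5 in GFP-. GFP+ was higher on replicates 2 and 4 and lower on the others, and the normalized log2 ratios were -0.05, 1.51, -0.29, 1.20 and -1.22. Their mean was 0.23 ± 1.12 (SD, n = 5), with a 95% interval from -1.07 to 1.53 and, in limma, an adjusted p of 0.932.

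The promoter of Sprr1a is printed because it holds paired matches to the AP-1 motif, a motif known from genes of squamous differentiation. It is on the minus strand of GRCm38.p6 at chr3:92485882-92486131, read 5′ to 3′ up to the RefSeq start. Capitals mark AP-1 (TGANTCA), the TATA box (TATAAA) and the CCAAT box (CCAAT).
Sprr1a: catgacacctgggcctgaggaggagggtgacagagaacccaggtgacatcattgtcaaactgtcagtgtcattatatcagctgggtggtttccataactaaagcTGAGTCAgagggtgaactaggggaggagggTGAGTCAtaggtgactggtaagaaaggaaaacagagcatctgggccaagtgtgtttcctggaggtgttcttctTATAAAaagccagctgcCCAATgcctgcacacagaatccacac

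The AP-1 matches lay 146 and 116 bases before the start, the TATA box 43 and the CCAAT box 26 bases before it. An AP-1 match was held by 6.75% of the 32851 promoter windows and a TATA box by 12.4%. The other motifs searched on both strands of each window, all without a match in Upk1a, Upk3a, Upk3b and Sprr1a, were a grainyhead motif (AACCNGTT, in 1.79% of windows) and a FOX motif (TNTTTAC, in 10.9%).

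**Figure D2:**
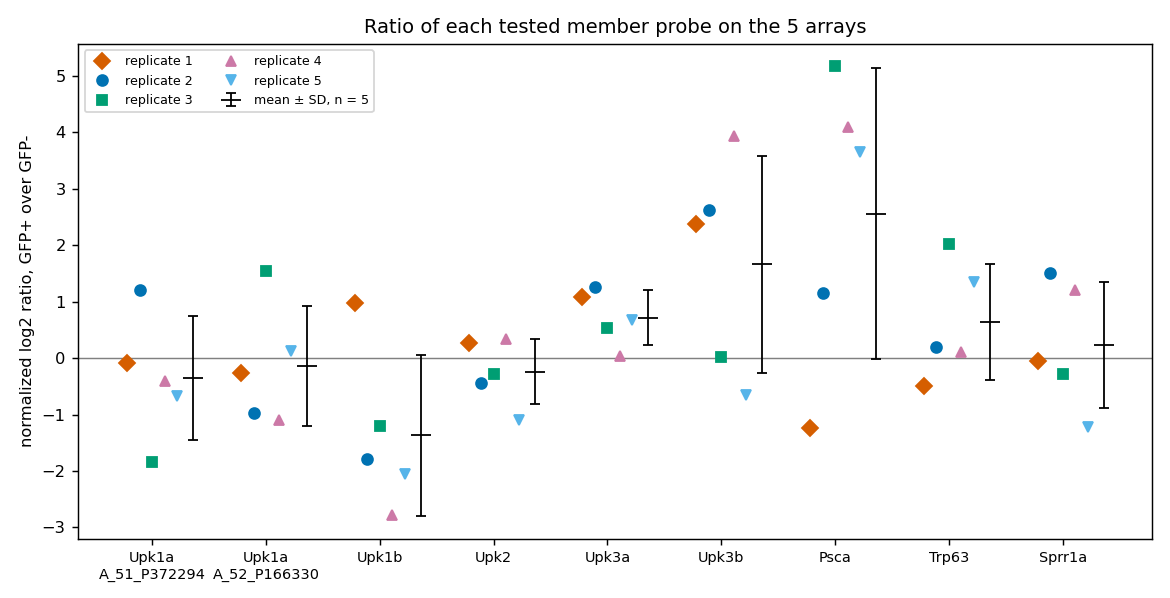
Normalized log2 ratio of GFP+ over GFP- for each tested member probe, with 1 point per array and the mean ± SD over 5 arrays. Upk3a has all 5 points above 0, Psca and Trp63 have only replicate 1 below 0, and Upk1b has only replicate 1 above 0.

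Over the 8 members, 5 of 8 means were above 0, against 49.8% of all genes. Trp63, 1 of these, passed the filter only through GFP+. The median of the members' means was 0.43, beside 0 over all genes tested, and the median SD over the arrays was 1.09 for the members and 1.45 for all genes. On single arrays 4, 5, 5, 6 and 4 of the 8 members were above 0 on replicates 1 to 5, and the medians of the members were 0.11, 0.67, 0.28, 0.22 and -0.27. The members therefore did not share a direction on any array.

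Differences of at least 2-fold on single arrays were common among the members, as they were among all genes. On replicate 1, Upk3a and Upk3b were at least 2-fold higher in GFP+, against 27.7% of all genes, and Psca was at least 2-fold lower, against 22%. On replicate 2, 4 of 8 members were at least 2-fold higher (Upk3a, Upk3b, Psca and Sprr1a), against 24.2%, and Upk1b was lower, against 23.8%. On replicate 3, Upk1a, Psca and Trp63 were higher, against 23.8%, and Upk1b was lower, against 18.2%. On replicate 4, Upk3b, Psca and Sprr1a were higher, against 23.3%, and Upk1a and Upk1b were lower, against 24.8%. On replicate 5, Psca and Trp63 were higher, against 20.9%, and Upk1b, Upk2 and Sprr1a were lower, against 27.3%. Psca was thus at least 2-fold higher on 4 arrays and at least 2-fold lower on 1, and Upk1b was at least 2-fold lower on 4.

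**Figure D3:**
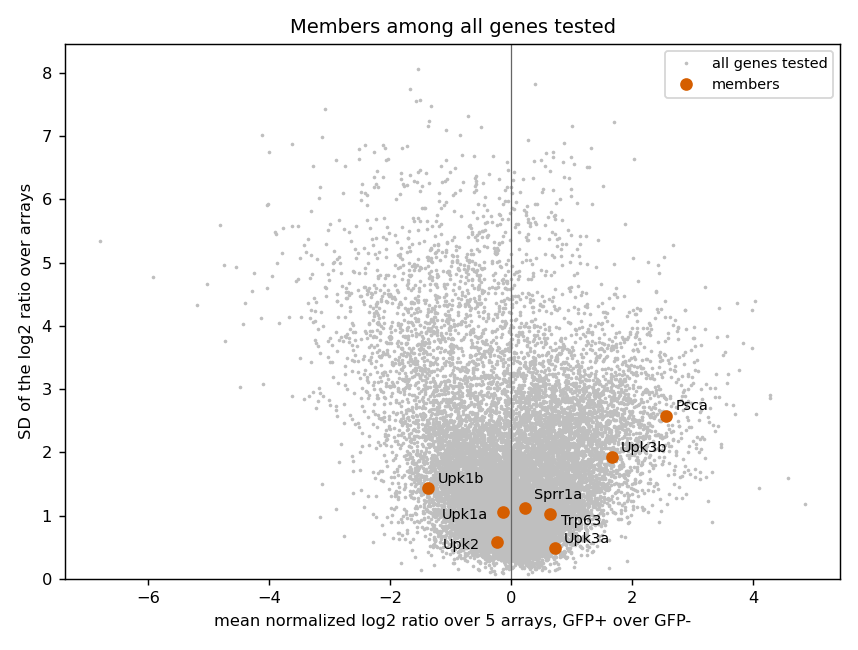
Mean and SD over the 5 arrays of the normalized log2 ratio, GFP+ over GFP-, for all 17425 genes tested (grey) and the 8 members (orange). Psca lies in the right part of the cloud with a mean of 2.56 and an SD of 2.58, and 0.987% of genes had a higher mean. Upk3a lies near the lower edge of the cloud with an SD of 0.48.

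With the sign of replicate 1 turned, the mean ratio was 3.06 for Psca, 0.71 for Upk3b, 0.28 for Upk3a and -1.76 for Upk1b. The adjusted p in limma was then 0.179 for Psca, 0.752 for Upk3b, 0.793 for Upk3a and 0.180 for Upk1b. Psca and Trp63 were below 0 on replicate 1 and above 0 on all others, a pattern shown by 8.29% of all genes. Upk1b showed the opposite pattern with 9.65% of all genes. The Trp63 probe passed the filter only through GFP+, where it was above background on 4 arrays, against 2 in GFP-. Upk3a and Upk3b were above 0 on replicate 1.

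The medians of the thin limb, principal cell and intercalated cell lists had the same sign as the Psca ratio on each array. So did those of the list for the urothelial surface and its membrane traffic, which holds Psca itself. Those of the thick ascending limb and proximal tubule lists did not. The principal cell markers, which include the water channel genes Aqp2 and Aqp3, had 9 of 9 genes tested, 8 of them with a mean above 0, and list medians of -3.31, 4.47, 2.75, 0.79 and 0.38 on replicates 1 to 5. Their summed intensities ran from 67344 to 755733 in GFP+ and from 35424 to 700372 in GFP-. Aqp2 had log2 ratios of -6.24, 4.53, 0.83, 1.66 and 1.12, and Aqp3 had -3.31, 4.47, 5.15, 2.54 and 0.38. Neither passed, with an adjusted p of 0.955 for Aqp2 and 0.825 for Aqp3 in limma.

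The intercalated cell list followed the same sides, with 7 of 7 genes tested and medians of -2.42, 1.14, 0.32, 1.01 and 1.53. Its summed intensities ran from 85425 to 818268 in GFP+ and from 15942 to 578072 in GFP-, and its anion exchanger gene Slc4a1 had a mean ratio of 2.52 ± 5.09 (SD, n = 5). The thin limb list, with 6 of 6 genes tested and all 6 means above 0, had medians of -2.46, 2.75, 4.13, 3.52 and 1.96. Its summed intensities ran from 164539 to 1251732 in GFP+ and from 29224 to 738489 in GFP-, and its water channel gene Aqp1 had a mean ratio of 2.23 ± 3.47 (SD, n = 5). Limma called 0 genes in each of these lists. Above background in both populations on all 5 arrays were 8 of 9 principal cell, 6 of 7 intercalated cell and 6 of 6 thin limb genes. The part of these cell types in the Psca ratio was not tested.

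**Figure D4:**
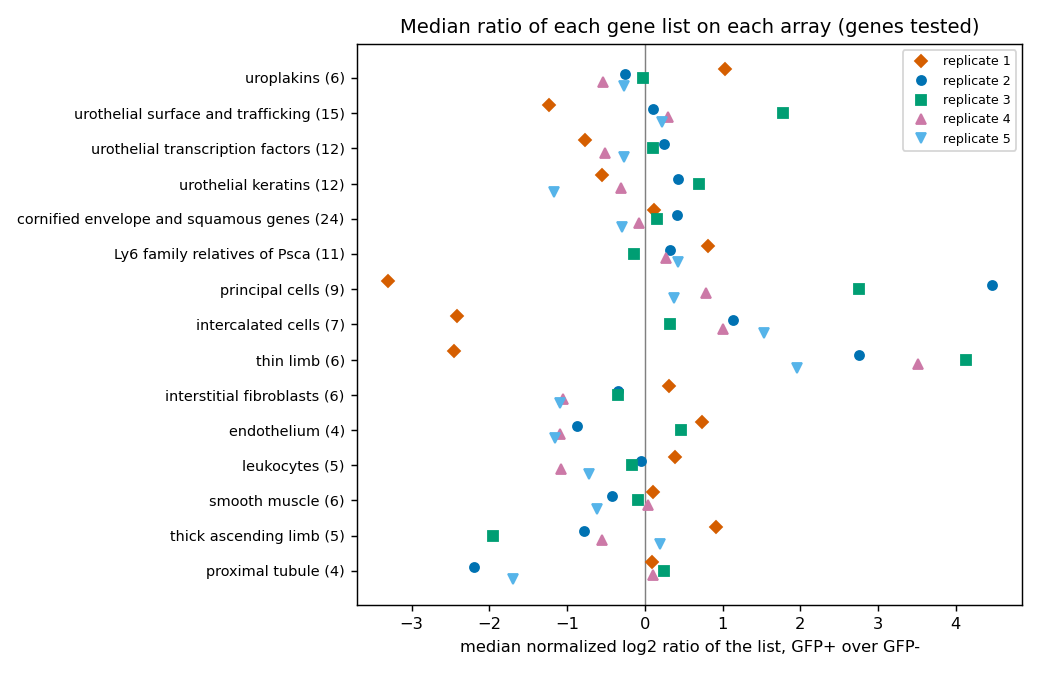
Median normalized log2 ratio of each gene list on each array, GFP+ over GFP-, with the number of genes tested in brackets. Replicate 1 is the lowest array for principal cell, intercalated cell and thin limb markers and the highest for the uroplakins, at 1.03.

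The uroplakin list, with Upk3bl added to the 5 uroplakins, did not follow these tubule markers. All 6 of 6 genes were tested, 3 means were above 0, and the medians were 1.03 on replicate 1 and between -0.54 and -0.03 elsewhere. Its summed intensities ran from 17104 to 250831 in GFP+ and from 12129 to 230007 in GFP-, and 5 of the 6 genes were above background in both populations on all 5 arrays. Upk3bl, a uroplakin 3b-like gene, had a mean log2 ratio of 0.18 ± 1.29 (SD, n = 5; adjusted p 0.948, limma).

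Of 18 genes for the urothelial surface and its membrane traffic, 15 were tested, limma called 0, and 9 means were above 0. The list medians were -1.23 on replicate 1 and 0.10 to 1.78 on the remaining arrays, and Aqp3 of the principal cell list is also in this list. After Psca, the lowest unadjusted p belonged to Muc1, a transmembrane mucin of epithelial surfaces. Its log2 ratios were -3.91, -1.44, -1.94, -2.75 and 1.32, a mean of -1.74 ± 1.95 (SD, n = 5; adjusted p 0.825, limma). Krt20, the keratin of umbrella cells, had a mean of 0.71 ± 1.45 (SD, n = 5; adjusted p 0.835, limma), with replicate 1 below 0 at -1.52 and the others above 0.

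The urothelial transcription factors gave no shared direction. Of 16 genes 12 were tested (Foxa1, Grhl1 and Tbx3 lay below the filter), limma called 0, 7 means were above 0, and the medians ran from -0.77 on replicate 1 to 0.24 on replicate 2. The epithelial factor gene Ehf had a mean of -1.56 ± 2.16 (SD, n = 5; adjusted p 0.825, limma), from -5.42 on replicate 4, while the other ratios lay between -0.73 and -0.47. Pparg, a nuclear receptor that drives urothelial differentiation, had a mean of -0.75 ± 0.86, and Gata3, a factor of urothelium and collecting duct, -0.66 ± 1.83 (SD, n = 5 each). Klf5 had 1.21 ± 2.62 and Elf3 0.14 ± 2.06 (SD, n = 5 each), and the adjusted p in limma was at least 0.825 for these 4 genes.

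Among the keratins a different pattern appeared, since Krt7 and Krt14 were lower in GFP+ on all 5 arrays. Krt7, a keratin of simple and transitional epithelia, had log2 ratios of -1.83, -1.89, -1.95, -1.40 and -2.02, with a mean of -1.82 ± 0.24 (SD, n = 5) and an unadjusted p of 0.0027. Krt14, a basal cell keratin, had -0.84, -1.70, -1.51, -1.13 and -3.65, with a mean of -1.76 ± 1.10 (SD, n = 5) and an unadjusted p of 0.0146. Neither passed over all genes, with an adjusted p of 0.825 in limma for both, and 2.91% of all genes were below 0 on every array.

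The remaining keratins showed no such pattern. Of the 12 keratins, all tested, 6 means were above 0, and the list medians ran from -1.17 on replicate 5 to 0.69 on replicate 3. Krt5, the basal cell partner of Krt14, had a mean of 0.68 ± 1.43 (SD, n = 5; adjusted p 0.836, limma), with a ratio above 0 on replicates 1, 3, 4 and 5 and -1.80 on replicate 2.

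Around Sprr1a, 24 of 27 cornified envelope and squamous genes were tested. Limma called 0, and 14 means were above 0, against 49.8% of all genes. At least 2-fold higher were 4, against 13.4%, and at least 2-fold lower were 0, against 12.6%. Of those 4, Sbsn had 6.28 on replicate 3 and Evpl 6.67 on replicate 2, and their ratios on the other arrays were at most 0.56. The list medians stayed between -0.29 and 0.41, including 0.12 on replicate 1. Cnfn, which encodes the envelope component cornifelin, was above 0 on all 5 arrays, with a mean of 1.07 ± 0.72 (SD, n = 5; unadjusted p 0.0542, adjusted p 0.825, limma). Ivl, the gene of involucrin, had a mean of 0.80 ± 0.81 (SD, n = 5; adjusted p 0.825, limma), with replicate 5 below 0 at -0.57.

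Relatives of Psca in the Ly6 family had means on both sides of 0. Of 11 genes tested, 6 means were above 0, limma called 0, and the list medians ran from -0.14 to 0.81. At least 2-fold higher were 3, against 13.4% of all genes, and at least 2-fold lower were 3, against 12.6%. Lypd2, a Ly6 domain gene, was above 0 on all 5 arrays at 0.81, 4.83, 1.84, 1.93 and 1.89, with a mean of 2.26 ± 1.51 (SD, n = 5; unadjusted p 0.0107, adjusted p 0.825, limma). Lypd3, whose product is a surface protein of stratified epithelia, had a mean of 1.16 ± 1.31 (SD, n = 5; adjusted p 0.825, limma), with replicate 5 below 0. Ly6e, named after its values were seen, had the sign of Psca on every array, as did 8.29% of all genes. Its log2 ratios were -3.92, 6.28, 6.13, 4.32 and 1.53, with a mean of 2.87 ± 4.25 (SD, n = 5) and an adjusted p of 0.825 in limma. Ly6c1, likewise named afterwards, had the opposite sign on every array, as did 9.65% of all genes, at 5.11, -6.11, -6.32, -5.01 and -0.75.

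Markers of stromal, vascular and immune cells, which papilla tissue could also hold, gave list medians mostly below 0 on replicates 2 to 5. On replicate 1 the medians of these lists were all above 0. Interstitial fibroblast markers had a median of 0.31 on replicate 1, with -1.09 to -0.34 on the rest. Of the 3 collagen genes in that list, Col1a1 had a mean of -1.84 ± 2.50, Col1a2 of -0.87 ± 1.66 and Col3a1 of 0.05 ± 1.29 (SD, n = 5 each). The endothelial gene Pecam1 had -0.67 ± 1.12 and the leukocyte gene Ptprc -0.75 ± 2.37 (SD, n = 5 each). List medians ran from -1.16 to 0.73 for endothelium and from -1.08 to 0.39 for leukocytes. Means above 0 were found for 2 of 6 fibroblast, 1 of 4 endothelial, 1 of 5 leukocyte and 1 of 6 smooth muscle genes tested. Among them were Dcn at 0.64, Plvap at 0.80 and Itgam at 0.21. Smooth muscle markers ran from -0.61 to 0.10, and limma called 0 genes in all of these lists.

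Umod, the uromodulin gene of the thick ascending limb, a segment that lies outside the papilla, was bright in both populations. It read from 2261 to 20468 times the negative control in GFP+ cells and from 4831 to 39528 times in GFP- cells. Of the proximal tubule markers 4 of 5 were tested, and Slc34a1 read from 29.4 to 262 times in GFP+ cells and from 14.4 to 5934 times in GFP- cells. The mean ratio of Umod was -0.86 ± 2.48 (SD, n = 5; adjusted p 0.856, limma). On replicates 1 to 5 the list medians were 0.91, -0.78, -1.95, -0.55 and 0.19 for the thick ascending limb. They were 0.09, -2.20, 0.24, 0.10 and -1.70 for the proximal tubule, and limma called 0 genes in either list. The part of these segments in the members' ratios was not tested.

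Since Upk3b and Upk1b are also known in mesothelium, a list of 9 mesothelial genes was added after the data were seen. Of the 6 that were tested, 2 means were above 0, those of Upk3b and Msln. Msln, which encodes mesothelin, read from 2.03 to 12.9 times the negative control in GFP+ and from 1.69 to 13.3 times in GFP-, and its mean ratio was 0.70 ± 1.13 (SD, n = 5; adjusted p 0.825, limma). Lrrn4 had a mean of -3.02 ± 4.82 (SD, n = 5, with an adjusted p of 0.825 in limma). Its log2 ratios were 2.28, -7.63, -1.53, -8.53 and 0.29 on replicates 1 to 5. Those of Upk3b were 2.37, 2.63, 0.02, 3.93 and -0.66. Gpm6a had a mean of -0.32 ± 1.68 and Nkain4 of -0.44 ± 0.62 (SD, n = 5 each). The part of mesothelial cells in the ratios of Upk3b and Upk1b was not tested. The list's summed intensities ran from 42964 to 256488 in GFP+ and from 26947 to 251994 in GFP-.

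For each member the gene with the most similar ratios was taken from 16277 named genes, by the root mean square difference of the log2 ratios over the 5 arrays. Upk2 was nearest to Aimp2, at 0.13, and 306 genes lay within 0.5 of it. Upk3a was nearest to Il24 at 0.17, Upk1b to Dvl2 at 0.24 and Upk1a to Rims4 at 0.32. Trp63 was nearest to Ms4a6c at 0.21 and Sprr1a to Htr5a at 0.22. No gene lay within 0.5 of Upk3b or Psca, whose nearest were Hnrnpr at 0.59 and Zfp710 at 0.64.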

How the data were processed

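Papilla cells of 5 replicates were measured on Agilent whole mouse genome arrays of 2 colours, with both populations of a replicate on 1 array. Per the file headers, each deposited array table gives, per probe, linear intensities of both channels, a log10 ratio and a p-value; that p-value was not used. Agilent Feature Extraction is named, without a version, per the submitters' processing notes. The authors' series matrix holds the same log10 ratios, which differed by over 0.001 at 0, 1, 3, 1 and 1 probes on replicates 1 to 5. The planned background correction needs scanner signals, which were not used here.

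To the deposited intensities 50 was added before log2 of the second over the first was taken. Loess (span 0.3) normalized each array; control probes had no weight and probes marked by the software (14 to 41 an array) were left out. A probe entered the test when 3 or more of the 5 arrays showed it above background (3 times the negative control) in either channel. Among 41174 non-control probes, 33479 carried 1 gene symbol, 817 of these by accession, 45 carried several and 7650 none here. Each gene was represented by its brightest tested probe. Ratios were set against 0 in limma (version 3.58.1; R 4.3.3) with lmFit and eBayes (two-sided), and p-values were adjusted by Benjamini-Hochberg over 17425 genes, or over 29814 probes for single probes, after the code was checked on simulated data. The array itself pairs the populations, and the number of arrays limits the precision.

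Named were all members, a set of 16 marker genes whatever their values, and at most 2 genes of lowest unadjusted p per list; the text does not give every gene so named. Members and the 15 lists were chosen with earlier results of these data known. Promoters are RefSeq's (GRCm38.p6), matched by symbol. Another 17 settings were tried.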

Additional observations from a re-analysis of the deposited data

Results flagged for a closer look

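Among 25 sets of 5 array values tested, the ratios of the 9 tested member probes and the medians of 16 gene lists, 1 held an array far from the others, where chance gives about 1 in 20. It was the mesothelial list, whose median was -1.64 on replicate 4 and 0.02, 0.10, 0.01 and 0.16 on replicates 1, 2, 3 and 5.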

How the results depend on the processing

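Under all 17 alternatives limma called 0 genes, and none of the members' ratios passed the threshold. The signs of Psca (1.91 to 3.51; adjusted p 0.179 to 0.989, limma), Upk3b (0.71 to 2.23), Upk3a (0.28 to 0.89), Trp63 (0.29 to 1.03), Upk1b (-1.96 to -1.02) and Upk2 (-0.39 to -0.03) held under all of them. Leaving out 1 array at a time moved Sprr1a from -0.09 to 0.59, below 0 without replicate 2 (-0.09) or replicate 4 (-0.01), and Upk1a from -0.55 to 0.10, above 0 without replicate 2 (0.07) or replicate 4 (0.10). The count of members with 1 sign on every array, 1 as reported, was 0 with a loess span of 0.7 and 0 with an offset of 16, 3 with the sign of replicate 1 turned, and 1 to 4 when 1 array was left out (4 without replicate 1, 2 without replicate 5). With replicate 1 turned, 1 member was at least 2-fold higher in GFP+ in place of 2. The cause of these moves was not tested. The 861 genes at an unadjusted p under 0.05 became 1555 with array weights, 2407 with replicate 1 turned and 1999 without replicate 1. Both populations of a replicate share an array; with the channels as separate samples and no replicate block, limma called 0 genes, 578 had an unadjusted p under 0.05, and no call changed. Upk1b, Trp63 and Sprr1a were below background in 1 population on some arrays, which limits their ratios.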
